A study of Mus musculus with 6 samples.

Results

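The proteasome genes of mouse colonic epithelial cells were compared between 3 wild-type libraries and 3 libraries from mice in which Nr3c1, the gene of the glucocorticoid receptor, was deleted in the intestinal epithelium. The genes were chosen by name: every row of the expression table whose symbol begins with Psma, Psmb, Psmc, Psmd or Psme and a digit, without pseudogenes. This gave 46 genes of the 23725 in the table. The rule uses no measured value, but the genes and the lists used below were chosen with earlier results of these data known. A gene was tested where 3 or more of the 6 libraries had a normalized value of 10 or more, and 44 of the 46 genes met this.

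All 6 libraries came from mice on the C57BL/6J background. The wild-type group is labelled only as wild type, and the knockout group as B6-Cg-Nr3c1-Vil-Cre/ERT2 (Nr3c1IEC-/-), in which a Cre recombinase that needs tamoxifen is under the villin promoter, which drives expression in the epithelium of the gut. The protocols in the labels describe, for both groups, daily tamoxifen over 5 days and collection on day 7 counted from the initial dose, with epithelial cells enriched over Percoll and used without culture. The labels do not give ages, and they leave unsaid whether Cre was present in the wild type, so receptor loss and Cre activity cannot be told apart. Nothing in the labels says whether each library is a separate animal's, so p-values measure the spread between these libraries.

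Values are given in the order of replicates 1, 2 and 3. The libraries held 10089313 to 12030844 reads assigned to genes. Nr3c1 was low in the 3 knockout libraries (145, 123 and 175 normalized reads). Wild type replicates 1 and 2 held 1120 and 967. The library labelled wild type replicate 3 held 197, close to the knockout level and against its label, so results that rest on it are also given without it. Markers of colonic epithelium were abundant in every library, with Epcam at 18255 to 21874 normalized reads. Of 12 such markers 2 rose and 4 fell in the knockout, where 15% of all 12837 genes tested rose and 15.4% fell. These shares of all genes are also the background for the leukocyte and stromal markers. Muc2 went from a wild-type mean of 28352 to a knockout mean of 9662 and Car1 from 143867 to 39006, while Krt20 went from 16247 to 31958. The summed epithelial level was 475029 to 505715 in the wild-type and 356494 to 447891 in the knockout libraries, without overlap. The fall of Car1 weighs heavily in this sum. The 6 epithelial markers that did not pass overlapped between the groups. Among them, Krt8 had means of 130835 and 130853 and Krt19 of 55844 and 63669 in the wild type and knockout. Markers of leukocytes moved with the groups: 13 of the 17 tested (24 listed) rose and 0 fell (limma, edgeR and DESeq2; 0 also at an unadjusted p under 0.05), and their summed level was 797 to 1546 in the wild-type and 3991 to 9358 in the knockout libraries. Much of this sum in knockout replicates 1 and 2 was S100a8 (2129 and 953) and S100a9 (2330 and 860). The leukocyte markers Cd68, Jchain, Adgre1 and Lyz2 were tested and did not pass. Of 7 tested stromal markers (10 listed) 2 rose, with summed levels of 601 to 1188 and 923 to 2893. The lymphocyte markers Cd3e, Cd4, Cd8a, Cd79a and Ms4a1 were too low to be tested, and Cd8a, Cd79a and the endothelial marker Cdh5 were at 0 in some libraries. In such bulk samples a change in the number of cells of a type and a change of RNA per cell cannot be told apart.

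The 26S proteasome degrades proteins tagged with ubiquitin. Its barrel, the 20S core, is made of alpha and beta rings, and 3 of the beta subunits (encoded by Psmb5, Psmb6 and Psmb7) hold the protein-cutting sites. The 19S cap holds a ring of ATPases that unfolds the substrate and a lid that removes the ubiquitin chain. In cells exposed to interferon gamma, and constitutively in many immune cells, the catalytic subunits are replaced by Psmb8, Psmb9 and Psmb10, which form the immunoproteasome and favour the production of peptides for MHC class I. Colonic epithelium renews quickly and faces microbial products, and it can express the immunoproteasome in inflammation.

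Across the whole set, 24 of 44 tested genes rose in the knockout libraries and 0 fell (limma on log2(value + 1), Benjamini-Hochberg adjusted p under 0.05; 0 fell at an unadjusted p under 0.05, and 0 by edgeR or DESeq2). Of all 12837 genes tested 15% rose and 15.4% fell. The median log2 change was 0.47 for the 44 genes against 0.01 for all genes, where a log2 change is the knockout mean minus the wild-type mean of log2(value + 1). All 3 knockout libraries lay above all 3 wild-type libraries for 36 of the 44 genes, and this held for 25.2% of all genes tested. Proteasome genes together took 0.352% to 0.415% of the reads of the wild-type libraries and 0.46% to 0.566% of those of the knockout libraries. With the library labelled wild type replicate 3 left out, 19 of the 44 genes rose, 16 of them among the 24 (12.6% of all genes rose). The count was 6 without wild type replicate 1 (7.56% of all genes rose and 7.42% fell) and 3 without wild type replicate 2 (7.77% rose and 7.5% fell). The median log2 change of the 44 genes was then 0.45 and 0.43. Leaving out knockout replicate 1 gave 14 raised genes (12.3% of all genes rose and 12.9% fell). The fit without knockout replicate 2 gave 20 raised genes (13.9% of all genes rose), and the fit without knockout replicate 3 gave 27 (12.5%). These shares of all genes are the background for the counts of each class and list below.

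**Figure D1:**
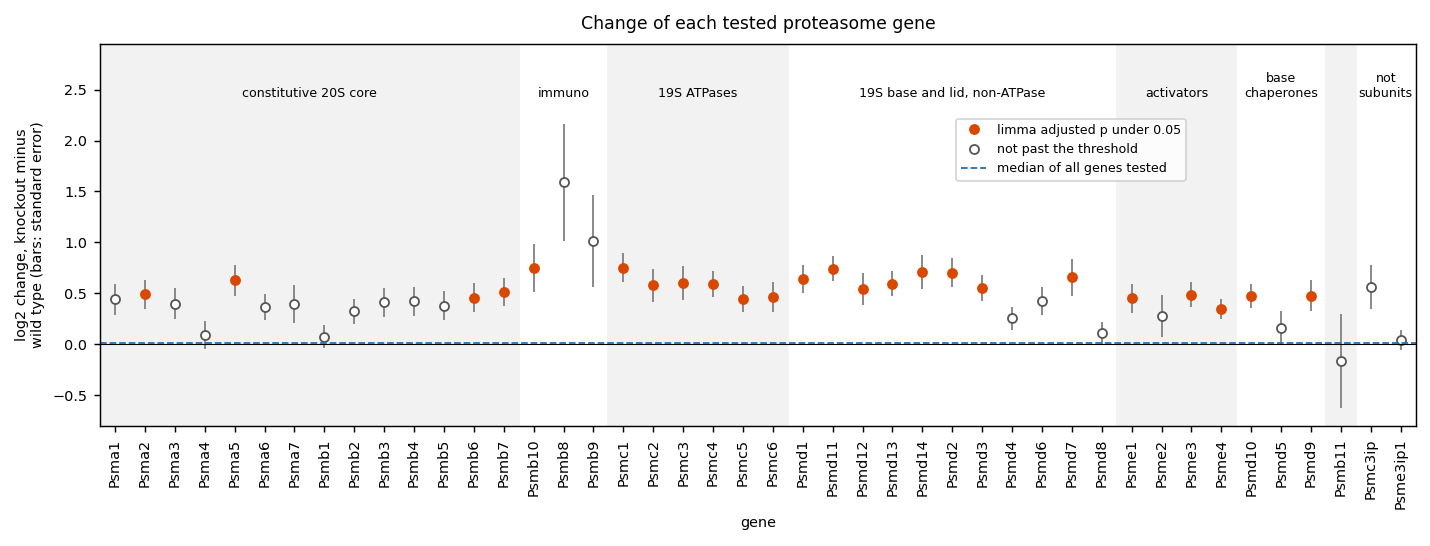
Log2 change of each tested proteasome gene, knockout minus wild type (vertical axis), with its standard error as a bar; filled points passed the limma threshold and open points did not, and the unlabelled band holds Psmb11. Of the 44 points 43 lie above 0, and the dashed line is the median of all genes tested, 0.01.

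Of the 14 genes of the constitutive 20S core 4 rose (15% of all genes tested did) and 10 did not pass, with a median log2 change of 0.40. The number that fell was 0, also by edgeR or DESeq2 or at an unadjusted p under 0.05. The number raised was 4 by edgeR, 7 by DESeq2 and 11 by limma at an unadjusted p under 0.05. The alpha subunit gene Psma5 was at 806, 760 and 884 normalized reads in the wild type against 1565, 1174 and 1093 in the knockout, without overlap between the groups (log2 change 0.63, SE 0.15, limma adjusted p = 0.0186). Psma2, another subunit of the outer ring that guards the entry to the barrel, had wild-type values of 1056, 1042 and 1174 and knockout values of 1876, 1438 and 1332 (log2 change 0.49, limma adjusted p = 0.0372). Of the 7 genes of the outer ring these 2 passed. When the library labelled wild type replicate 3 was left out, Psma5 passed (limma adjusted p = 0.0333), Psma2 did not (0.0576) and Psma1 did (0.0492). Psma4 (log2 change 0.09) and, in the inner ring, Psmb1 (0.08) were the smallest changes of the core, and their groups overlapped.

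Among the constitutive catalytic subunits, Psmb7, which encodes the trypsin-like site, was at 1218, 1037 and 1216 in the wild type against 1974, 1511 and 1506 in the knockout (log2 change 0.52, SE 0.14, limma adjusted p = 0.0283). Psmb6, the caspase-like site, was at 894, 845 and 963 against 1472, 1230 and 1041 (log2 change 0.46, SE 0.14, limma adjusted p = 0.0442). Psmb5, the chymotrypsin-like site, was at 918, 769 and 888 against 1321, 1086 and 963 and did not pass (log2 change 0.38, SE 0.14, limma adjusted p = 0.0776). For each of the 3 genes every knockout library exceeded every wild-type library. The smallest margin was that of Psmb5, between 963 in knockout replicate 3 and 918 in wild type replicate 1. The 9 other core genes that did not pass had log2 changes of 0.08 to 0.44. With the library labelled wild type replicate 3 left out, 2 core genes rose (Psma1 and Psma5), and Psmb6 and Psmb7 did not pass (limma adjusted p = 0.0679 and 0.0529). Without wild type replicate 1 or 2, 0 core genes rose. Leaving out knockout replicate 1 or 2 also gave 2 raised core genes, and leaving out knockout replicate 3 gave 9.

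Psmb8 and Psmb9 of the immunoproteasome had the largest log2 changes among the tested proteasome genes, with a wide spread between libraries. Of the 3 immunoproteasome genes 1 rose and 0 fell, with a median log2 change of 1.01. The number raised was 1 by edgeR, 2 by DESeq2 and 2 by limma at an unadjusted p under 0.05, and the number lowered was 0 in each. Psmb8, the replacement for Psmb5, was at 189, 90.9 and 349 in the wild type against 1082, 285 and 539 in the knockout. The groups overlapped, because the library labelled wild type replicate 3 lay above knockout replicate 2, and the change did not pass (log2 change 1.59, SE 0.58, limma adjusted p = 0.0706). Without that wild-type library the log2 change was 2.06 and passed (limma adjusted p = 0.0394). Psmb9, the replacement for Psmb6, was at 195, 125 and 294 against 731, 225 and 363 (log2 change 1.01, SE 0.45, limma adjusted p = 0.121), again with overlap at the same pair of libraries. Psmb10, the replacement for Psmb7, was at 967, 996 and 1254 against 2516, 1286 and 1770, without overlap (log2 change 0.75, SE 0.24, limma adjusted p = 0.0464). With the library labelled wild type replicate 3 left out, Psmb10 had a log2 change of 0.87 and did not pass (limma adjusted p = 0.055). All 3 genes passed without knockout replicate 2, and 0 passed when wild type replicate 1 or 2, or knockout replicate 1 or 3, was left out.

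Psmb8 and Psmb9 lie close together in the MHC region of chromosome 17 (GRCm38, chr17:34198195-34201454 and chr17:34182030-34187330). Psmb9 shares up to 212 exonic bases with Tap1, a peptide transporter gene on the opposite strand, and the libraries were not stranded, so reads from the overlap cannot be assigned to either. Tap1, named here for this position after its values were seen, was at 328, 291 and 654 in the wild type against 2326, 479 and 885 in the knockout, overlapping at the same pair of libraries (limma adjusted p = 0.102). Psmb10 lies on chromosome 8 (chr8:105935728-105938392).

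Read per kilobase of transcript, which allows levels of different genes to be set side by side, Psmb8 stood at 129 ± 80 (SD, n = 3) in the wild type against 955 ± 87.9 for Psmb5, and Psmb9 at 152 ± 62.8 against 1128 ± 74.1 for Psmb6. Psmb10 was much closer to the subunit it replaces, with 818 ± 120 against 997 ± 89.9 for Psmb7. In the knockout libraries the level per kilobase was 390 ± 250 for Psmb8 and 1250 ± 202 for Psmb5. Lengths were those of the principal GENCODE transcripts, which need not be the models the authors counted on.

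The ratio of each immunoproteasome subunit to the subunit it replaces does not depend on library scaling. Psmb8 to Psmb5 was 0.206, 0.118 and 0.393 in the wild type against 0.819, 0.262 and 0.56 in the knockout. Psmb9 to Psmb6 was 0.219, 0.148 and 0.306 against 0.496, 0.183 and 0.349. Psmb10 to Psmb7 was 0.794, 0.961 and 1.03 against 1.27, 0.851 and 1.17. In all 3 ratios knockout replicates 1 and 3 lay above every wild-type library and knockout replicate 2 lay among them. The log2 changes of the ratios were 1.21, 0.55 and 0.23, and a two-sided exact permutation test gave p = 0.2, 0.4 and 0.3 (each 0.4 after adjustment over the 3), where 3 against 3 libraries allow no p below 0.1. The leukocyte marker level followed the same order among knockout libraries, with means of log2(value + 1) of 8, 6.81 and 7.22 in replicates 1, 2 and 3, and of 4.53, 4.85 and 5.48 in wild type replicates 1, 2 and 3. The stromal marker level had the same order among knockout libraries, at 7.942, 6.255 and 7.163. In the wild type Psmb8 and Psmb9 were lowest in replicate 2 and the markers in replicate 1, and both were highest in replicate 3. The part of the markers in these values was not tested.

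**Figure D2:**
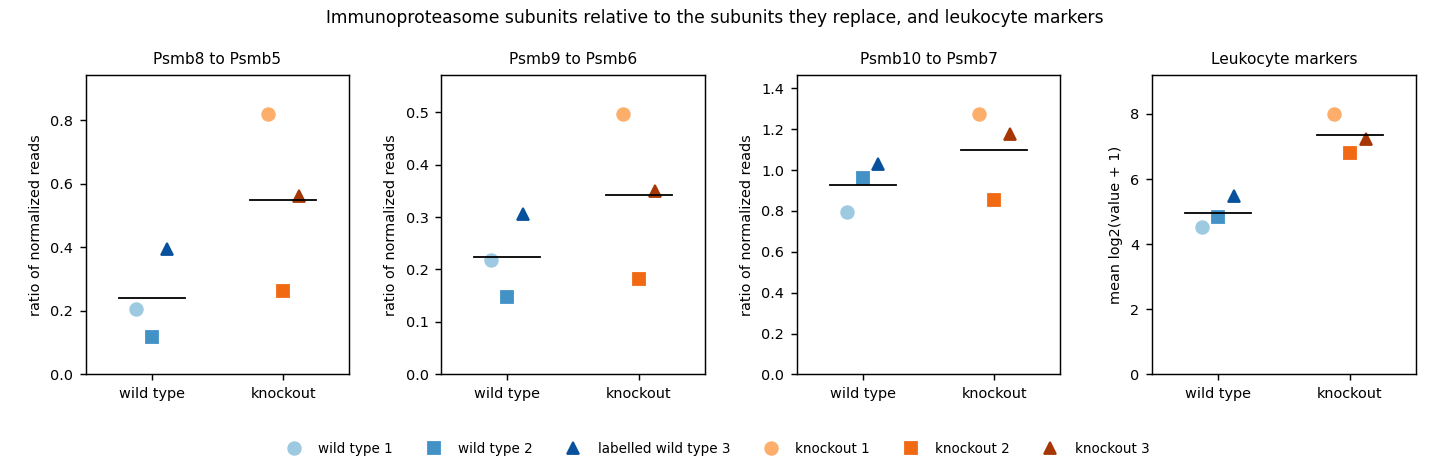
Ratio of normalized reads of each immunoproteasome gene to the gene of the subunit it replaces (first 3 panels) and mean log2(value + 1) of the tested leukocyte markers (last panel), 1 point per library, with group means as lines. Knockout replicate 2 falls among the wild-type libraries in all 3 ratios, whereas the leukocyte marker level separates the groups.

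The ATPase genes of the 19S cap rose as a class. All 6 passed the threshold, their groups did not overlap, and their log2 changes ran from 0.44 to 0.75 with limma adjusted p-values of 0.00776 to 0.0453. Psmc1 was at 921, 848 and 1076 in the wild type against 1855, 1511 and 1430 in the knockout (log2 change 0.75, SE 0.14). Psmc4 was at 840, 795 and 901 against 1503, 1214 and 1127 (log2 change 0.59, SE 0.13, limma adjusted p = 0.0142). Psmc3 was at 1258, 1117 and 1528 against 2383, 1834 and 1718 (log2 change 0.60, SE 0.17, limma adjusted p = 0.0303). These ATPases belong to the same ring, which pulls substrates into the core. Psmc2, Psmc5 and Psmc6 had log2 changes of 0.58, 0.44 and 0.46. All 6 also rose with the library labelled wild type replicate 3 left out, but leaving out wild type replicate 1 or 2 left 1 raised and leaving out knockout replicate 1 left 3. Quantile normalization left 4 raised and the fit without a filter 5.

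Of the 11 genes of the other base and lid subunits 8 rose, 0 fell (0 fell also by edgeR and DESeq2 and at an unadjusted p under 0.05) and 3 did not pass, with a median log2 change of 0.60. Psmd11, a scaffold subunit of the lid, had the smallest adjusted p of the whole set, with wild-type values of 640, 616 and 696 and knockout values of 1246, 1021 and 1012 (log2 change 0.74, SE 0.12, limma adjusted p = 0.00466). Psmd2, a base subunit that binds ubiquitin-like proteins, went from 2160, 1995 and 2562 to 4243, 3284 and 3432 (log2 change 0.70, SE 0.14, limma adjusted p = 0.0106). Psmd13, a lid subunit, was at 1076, 951 and 1181 against 1777, 1608 and 1465 (log2 change 0.60, SE 0.12, limma adjusted p = 0.011). Each of these had all knockout libraries above all wild-type libraries.

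Further members of the class that rose were Psmd14, the deubiquitinating enzyme of the lid (log2 change 0.71, limma adjusted p = 0.0164), its partner Psmd7 (0.66, 0.0304), the large base subunit Psmd1 (0.64, 0.0117), and the lid subunits Psmd3 (0.55, 0.0182) and Psmd12 (0.55, 0.0344). Psmd4, a ubiquitin receptor, went from a mean of 1032 ± 35.2 to 1236 ± 140 (SD, n = 3) and did not pass (log2 change 0.25, limma adjusted p = 0.118), nor did the lid genes Psmd6 (0.42, 0.0528) and Psmd8 (0.11, 0.448). With the library labelled wild type replicate 3 left out, the number raised was also 8, but Psmd12 did not pass (limma adjusted p = 0.0579) and Psmd6 did (0.0476). Leaving out wild type replicate 2 gave 2 raised genes, and leaving out wild type replicate 1 gave 5. Psmc1, Psmd1 and Psmd11 were the 3 proteasome genes that rose with any 1 library left out; 6.89% of all genes tested did so.

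In counts, 14 of the 17 genes of the 19S cap rose against 4 of the 14 of the constitutive core, and the median log2 changes were 0.59 and 0.40. These counts depend on the threshold. By limma at an unadjusted p under 0.05, 11 of the 14 core genes rose, with all 6 ATPase genes and 9 of the 11 other base and lid genes. All knockout libraries lay above all wild-type libraries for 16 of the 17 cap genes and 12 of the 14 core genes (25.2% of all genes tested). Whether the classes differ was not tested.

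**Figure D3:**
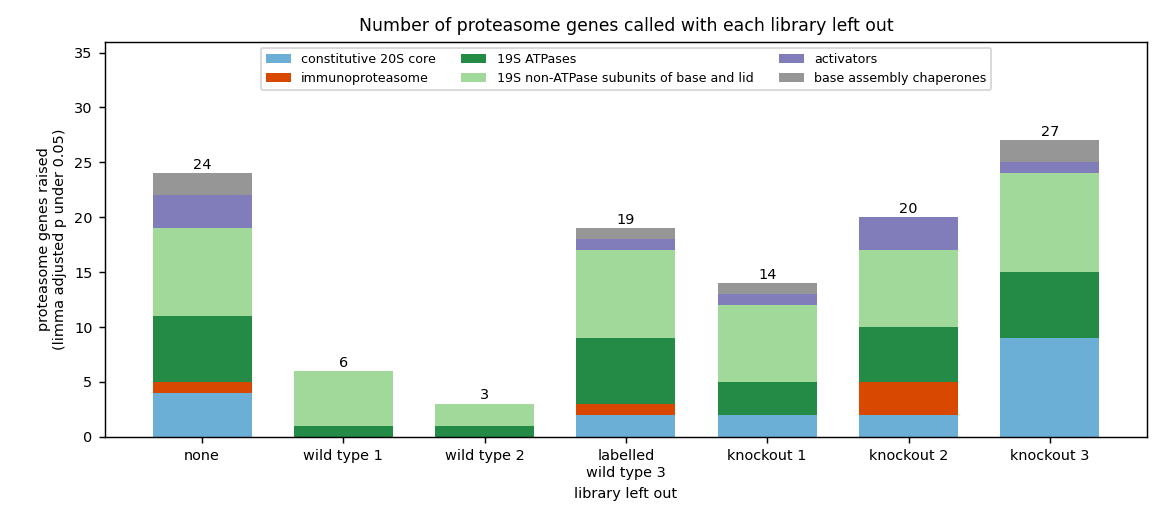
Number of proteasome genes raised in the knockout libraries (limma adjusted p under 0.05) in the full comparison and with each library left out, stacked by class. The count was 24 with all libraries, 6 and 3 without wild type replicates 1 and 2, and 27 without knockout replicate 3.

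The upstream sequence of the gene with the smallest adjusted p, Psmd11, is shown with those of 2 other base and lid genes that rose, Psmd2 and Psmd1, to set their letters side by side; capitals mark the letters CTTCCGG, the core of ETS-type sites, which were picked after the sequences had been read. Each is the 160 bases before a RefSeq start in GRCm38.p6, on the plus strand, at chr11:80428455-80428614, chr16:20651492-20651651 and chr1:86064459-86064618. The gene interval of Psmd2 begins earlier, at chr16:20651122, so its stretch lies within the gene, before a later start.
Psmd11: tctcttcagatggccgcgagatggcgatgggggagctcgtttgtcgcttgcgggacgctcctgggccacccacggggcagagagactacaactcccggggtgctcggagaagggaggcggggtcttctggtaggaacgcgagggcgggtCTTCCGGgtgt
Psmd2: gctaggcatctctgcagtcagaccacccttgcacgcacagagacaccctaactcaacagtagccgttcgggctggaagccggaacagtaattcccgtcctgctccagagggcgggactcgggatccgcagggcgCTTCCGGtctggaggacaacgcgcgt
Psmd1: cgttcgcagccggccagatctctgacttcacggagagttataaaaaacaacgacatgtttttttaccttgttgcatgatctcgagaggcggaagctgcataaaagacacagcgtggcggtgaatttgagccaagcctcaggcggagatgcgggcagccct

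In the 250 bases before a start, CTTCCGG or its reverse complement was found for 12 of the 39 proteasome genes that matched the promoter table (30.8%), against 6.91% of the 32851 windows of all genes. The 39 genes had 43 windows, since some have more than 1 start. Here and below, a gene counts with a match in any of its windows, so the shares are of genes and of windows. Because CTTCCGG was picked after sequences of these genes had been read, its share tests nothing. Genes with the match were Psmc1, Psmc2, Psmc6, Psmd2, Psmd4, Psmd6, Psmd11, Psmd12, Psma6, Psme3, Psme4 and Psmc3ip, of which Psmd4, Psmd6, Psma6 and Psmc3ip did not pass the expression threshold. The genes not matched to the table were Psma8, Psmb1, Psmb2, Psmb7, Psmc3, Psmd3 and Psmd7. A match is a description of letters and not evidence of a bound site.

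Sites of 4 further kinds were searched on both strands of the same windows. The letters TTCNNNGAA, the GAS-type site of interferon gamma signalling, were in 1 of the 39 genes (2.56%, against 7.02% of all windows), and that gene was Psmb8. The letters TGACNNNGC, the core of the antioxidant response element bound by the factors of Nfe2l1 and Nfe2l2, were in 5 genes (12.8%, against 10.2%), namely Psmb5, Psmb6, Psmc6, Psmd9 and Psmd12. The ISRE-type motif of interferon signalling, searched as a pair of GAAA runs with 2 bases of any kind between them, was in Psmb3, Psmd4 and Psmd9 (7.69%, against 2.98%). The glucocorticoid response element, searched as AGAACA and TGTTC with 3 bases of any kind between them, was in 0 of the 39 genes and in 0.0304% of all windows. The gene interval of Psmb6 begins at chr11:70525324, so its match lies within the gene, before a later start. The 30 bases around the match are shown for Psmb8, for its constitutive counterpart Psmb5 and for Psmb6, with the match in capitals, in the direction of the gene (GRCm38.p6 chr17:34198088-34198117, plus strand; chr14:54618023-54618052, minus strand; chr11:70525327-70525356, plus strand).
Psmb8: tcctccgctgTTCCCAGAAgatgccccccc
Psmb5: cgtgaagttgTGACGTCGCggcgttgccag
Psmb6: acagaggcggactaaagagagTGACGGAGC

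Activators are caps that open the core without ATP-driven unfolding. Of 4 genes 3 rose and 0 fell (0 fell also by edgeR and DESeq2 and at an unadjusted p under 0.05). Over all genes tested 15% rose and 15.4% fell. Psme1 and Psme2 encode the partner subunits of the interferon-induced PA28 alpha-beta cap. Psme1 was at 1161, 1145 and 1219 in the wild type against 1945, 1359 and 1566 in the knockout, without overlap (log2 change 0.45, SE 0.14, limma adjusted p = 0.0454). Psme2 was at 1653, 1390 and 1750 against 2647, 1504 and 1801, with knockout replicate 2 among the wild-type libraries, and did not pass (log2 change 0.28, SE 0.21, limma adjusted p = 0.328). Its near-identical copy Psme2b had 0 reads in all 6 libraries, which allows up to 3 reads in each, and the counting could have dropped or moved reads shared by these copies.

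Psme3, the nuclear activator PA28 gamma, was at 902, 884 and 963 against 1482, 1231 and 1164 (log2 change 0.49, SE 0.12, limma adjusted p = 0.0198). Psme4, the activator PA200, was at 1329, 1315 and 1337 against 1681, 1553 and 1843 (log2 change 0.35, SE 0.10, limma adjusted p = 0.0371). Its wild-type libraries, the one labelled replicate 3 included, were close together at 1327 ± 11 (SD, n = 3). Without that library only Psme3 rose of the 4, and Psme1 and Psme4 kept log2 changes of 0.48 and 0.35 (limma adjusted p = 0.082 and 0.0826). Without wild type replicate 1 or 2, 0 activator genes rose, and without knockout replicate 1 or 3, 1 did.

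Of the 3 chaperones that assemble the base, Psmd10 (gankyrin) was at 223, 242 and 243 against 313, 350 and 322 (log2 change 0.47, SE 0.12, limma adjusted p = 0.0199) and Psmd9 at 218, 194 and 213 against 347, 276 and 253 (log2 change 0.48, SE 0.15, limma adjusted p = 0.0486). Psmd5 overlapped between the groups, with means of 516 ± 63.1 and 580 ± 112 (limma adjusted p = 0.496). With the library labelled wild type replicate 3 left out only Psmd10 rose of the 3 (limma adjusted p = 0.0445, against 0.0908 for Psmd9), and 0 did when wild type replicate 1 or 2, or knockout replicate 2, was left out. Leaving out knockout replicate 1 gave 1.

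The remaining 5 genes matched by name are not general subunits. Psmb11, the thymus-specific beta subunit, was at 21.2, 54.8 and 28.2 against 23.1, 19.7 and 50.6 (limma adjusted p = 0.802), and its level per kilobase in the wild type was 8.18 ± 4.16 against 955 ± 87.9 for Psmb5. Psma8, the testis-specific alpha subunit, had 1 read in knockout replicate 1 and 0 in the other libraries, and neither it nor Psme2b was tested. Psmc3ip is a partner of the meiotic recombinase and no proteasome subunit; it was at 45.6, 53.8 and 67.4 against 92.2, 81.7 and 71.6 and did not pass (log2 change 0.56, limma adjusted p = 0.0827). It shares up to 385 exonic bases with Mlx on the opposite strand. Psme3ip1, which binds PA28 gamma, was nearly flat, at 454, 455 and 458 against 468, 463 and 481 (log2 change 0.05, limma adjusted p = 0.74).

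The constitutive subunits moved together from library to library. Relative to the wild-type mean, the median of the 31 genes of the constitutive core and the 19S cap was 0.00, -0.12 and 0.11 on the log2 scale in wild type replicates 1, 2 and 3 and 0.74, 0.42 and 0.29 in knockout replicates 1, 2 and 3. Knockout replicate 1 was the highest of all libraries for 31 of 31 genes, and knockout replicate 3 the lowest knockout library for 28 of 31. Wild type replicate 2 was the lowest wild-type library for 28 of 31. Knockout replicate 1 was the highest of all libraries for 3911 of the 12837 genes tested. Over these genes knockout replicate 3 was the lowest knockout library for 31.8% and wild type replicate 2 the lowest of its group for 31.6%.

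The immunoproteasome genes had another order among the knockout libraries, with medians of 1.91, 0.27 and 0.91 in replicates 1, 2 and 3. The leukocyte marker level shared that order and not the order of the constitutive genes, in which replicate 2 came before replicate 3. That order was not particular to leukocyte markers. In replicates 1, 2 and 3 the medians of the stromal markers were 2.69, -0.12 and 1.48 and those of the activators 0.71, 0.22 and 0.38. For a list of interferon signalling and class I antigen processing genes they were 0.95, 0.27 and 0.72. The part of any of these was not tested. Knockout replicate 1 was highest in all of these measures. Fitting the mean level of the 24 tested leukocyte and stromal markers as a covariate left 0 of the 44 genes called (unlike the 24 without it; 0.0156% of all genes rose) and moved the median log2 change of the 31 constitutive genes from 0.46 to 0.10 and that of the immunoproteasome genes from 1.01 to -0.87. That marker level was 4.77 to 5.87 in the wild-type and 6.64 to 7.98 in the knockout libraries, so in this fit it and genotype cannot be told apart.

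**Figure D4:**
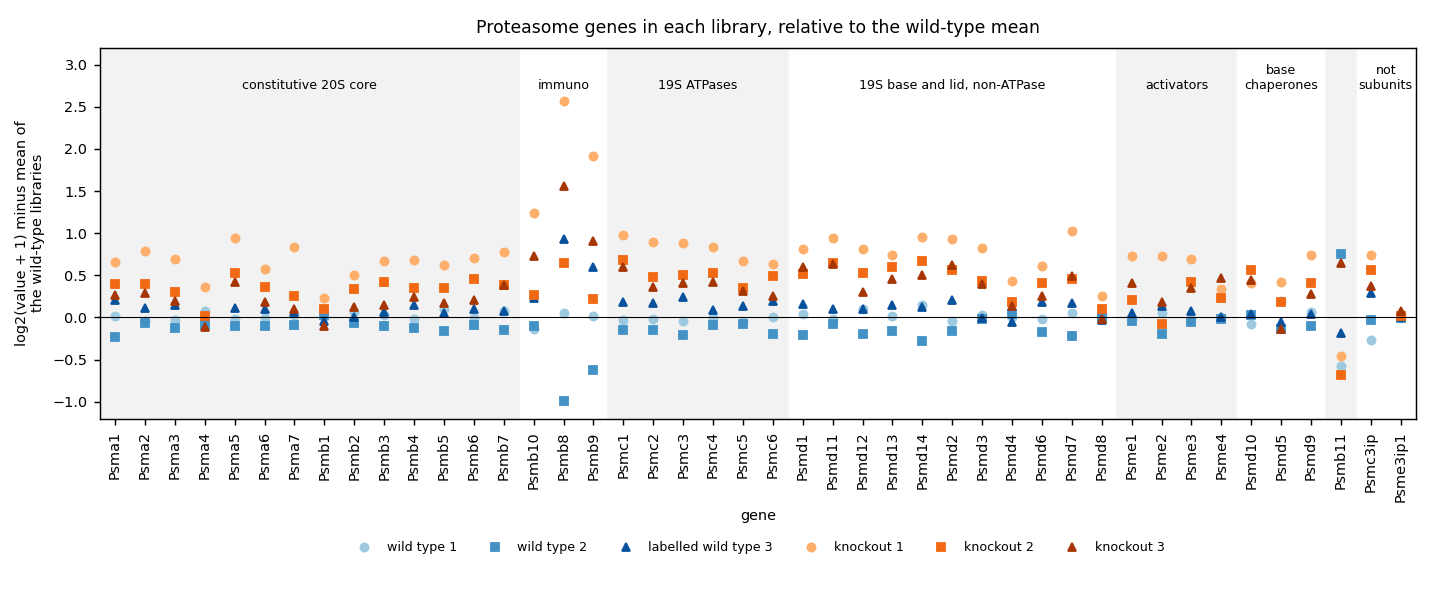
Level of each tested proteasome gene in each library, as log2(value + 1) minus the mean of the wild-type libraries (vertical axis), grouped by class; the unlabelled band holds Psmb11. Knockout replicate 1 is the highest library for all 31 constitutive core and 19S genes, while Psmb8 has the widest spread in both groups.

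Genes that work with the proteasome were read from 3 further lists. Of 18 tested genes (19 listed) of other subunits, assembly factors and regulators 5 rose and 1 fell, with a median log2 change of 0.22. By edgeR 5 rose and 1 fell, and by DESeq2 5 rose and 2 fell. At an unadjusted p under 0.05 by limma, 6 rose and 3 fell. Over all genes tested 15% rose and 15.4% fell. Adrm1, a ubiquitin receptor of the base, was at 748, 651 and 842 against 1486, 1153 and 1150 (log2 change 0.75, limma adjusted p = 0.00898), and Pomp, the maturation factor of the core, at 786, 777 and 885 against 1519, 1193 and 1194 (log2 change 0.67, limma adjusted p = 0.00878). The other risers were the lid subunit gene Sem1 (log2 change 0.44) and the genes of the deubiquitinating enzymes Uchl5 (0.59) and Usp14 (0.51), which bind the cap; these 3 were named after their values were seen. The gene that fell by limma was Nfe2l2, an antioxidant transcription factor, from 2649, 2985 and 1958 to 1410, 1808 and 1217 (log2 change -0.77, limma adjusted p = 0.0234). Zfand5 went from a mean of 3859 to 2649 and did not pass (log2 change -0.57, limma adjusted p = 0.0582). Nfe2l1, whose product restores proteasome genes when the proteasome is inhibited, did not pass; it was at 2251, 2532 and 2413 against 1825, 1902 and 2122 (log2 change -0.30, limma adjusted p = 0.0672), and was named after its values were seen. With the library labelled wild type replicate 3 left out, 2 rose and 1 fell (12.6% and 12.5% of all genes tested). Uchl5, Usp14 and Sem1 then did not pass (limma adjusted p = 0.0577, 0.0713 and 0.0965). Leaving out knockout replicate 1 also gave 2 (12.3% of all genes tested), as did leaving out wild type replicate 1 or 2 (7.56% and 7.77%). In the fits without wild type replicate 1 or 2, 0 fell.

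Of 17 genes of ubiquitin supply and delivery 3 rose, a share near the 15% of all genes tested, and 0 fell (0 also at an unadjusted p under 0.05 and by edgeR, 1 by DESeq2), with a median log2 change of 0.10. Vcp, the ATPase that extracts ubiquitinated proteins, was at 3470, 3282 and 3872 against 6604, 5285 and 5584 (log2 change 0.71, limma adjusted p = 0.00699). Its cofactor gene Nploc4 and the shuttle gene Rad23b had log2 changes of 0.49 and 0.55 (limma adjusted p = 0.0156 and 0.0282). Without wild type replicate 1 or 2, 1 of these genes rose, and 2 rose with the library labelled wild type replicate 3 left out, where Rad23b did not pass (limma adjusted p = 0.0742).

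Of 23 tested genes (25 listed) of interferon signalling and class I antigen processing 10 rose and 0 fell, with a median log2 change of 0.53. Over all genes tested 15% rose and 15.4% fell. By edgeR 9 rose, by DESeq2 11 rose and by limma 14 rose at an unadjusted p under 0.05, and 0 fell in each. The smallest adjusted p-values were those of Calr and Pdia3, chaperones of the endoplasmic reticulum that help load MHC class I, and of Ube2l6, the conjugating enzyme for Isg15, with log2 changes of 1.01, 0.74 and 1.45 (limma adjusted p = 0.00485, 0.00895 and 0.00689). Ifng, the gene of interferon gamma, was at 0 in all wild-type libraries and at 17.8, 1.03 and 0.955 in the knockout libraries, and was not tested. Its values in knockout replicates 2 and 3 are at the floor, so only replicate 1 stands apart. Leaving out wild type replicate 1 gave 4 raised genes (7.56% of all genes tested rose) and wild type replicate 2 gave 5 (7.77%). Leaving out knockout replicate 3 gave 6 (12.5%), and the library labelled wild type replicate 3 gave 9 (12.6%).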

How the data were processed

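The table the authors deposited holds a normalized signal for each gene and library. The submitters' processing notes name FastQC, TopHat, DESeq2 and the build mm10, without versions; the read counter is not given in the sources used here. In each column 100% of the values were whole multiples of the smallest value above 0, within 0.001, so the signal is a count divided by 1 number per library and whole reads were recovered. Of 23725 Entrez identifiers 23666 matched a RefSeq symbol (GRCm38.p6).

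Differences were tested over all genes with limma 3.58.1 (R 4.3.3) with an intensity trend on log2(value + 1), keeping genes that reached 10 in 3 or more libraries. Alternatives were pseudocounts of 0.5 and 5, no filter, a filter at 50, TMM and quantile scaling, count models on the recovered reads (edgeR 4.0.16, DESeq2 1.42.0), a marker covariate, and leaving out each library. The fit was checked on simulated counts. Replicate numbers follow accession order and pair nothing. Replicate pairs differed beyond counting noise (chi-square per degree of freedom 14.2 to 53.9).

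The genes and lists were chosen with earlier results of these data known. The naming rule was: Nr3c1, the immunoproteasome genes and their counterparts, the activators, the 3 smallest adjusted p-values in each other class and list, and any other proteasome gene past the threshold. Other genes, such as the members that did not pass, Ifng and Tap2, were named after their values were seen. Exonic bases were shared with another annotated gene by 12 tested proteasome genes, 7 of which rose, and the libraries were not stranded. Sequences are from RefSeq (GRCm38.p6), and transcript lengths and exons from GENCODE M21. Some items are not reported here.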

Additional observations from a re-analysis of the deposited data

How the results depend on the processing

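No paired analysis was possible because the labels give the libraries no shared replicate numbers. With 1 library left out at a time, the genes raised numbered 970 to 1782 and those lowered 953 to 1825 over the whole table (1931 and 1979 with all libraries), the proteasome genes raised 3 to 27 (24), the constitutive core 0 to 9 (4), the immunoproteasome 0 to 3 (1), the ATPases 1 to 6 (6), the other base and lid genes 2 to 9 (8) and the activators 0 to 3 (3), while 0 proteasome genes were lowered in any of these fits. Quantile normalization raised 17 proteasome genes (14.6% of all genes rose): 2 core, 0 immunoproteasome, 4 ATPase, 8 other base and lid and 1 activator genes. The fit without a filter raised 21 (11.3% of all genes rose), with 5 ATPase and 2 activator genes. DESeq2 raised 29 (16.7% of all genes rose), with 7 core and 2 immunoproteasome genes. The cause was not tested. The marker covariate left 2 genes raised and 14 lowered in the whole table and 0 proteasome genes raised: 0 core, 0 immunoproteasome, 0 ATPase, 0 other base and lid and 0 activator genes. On the recovered reads edgeR called 1887 genes raised and 2006 lowered, and 24 proteasome genes raised, all 24 shared with limma.

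Directions turned for some genes, among them Psmb10 and Psme1, which had passed the threshold without the marker covariate. With the marker covariate the log2 changes were -0.12 for Psma3, -0.20 for Psma4, -0.21 for Psma7, -0.0356 for Psmb1, -0.0358 for Psmb4, -0.87 for Psmb8, -1.01 for Psmb9, -0.39 for Psmb10, -0.0657 for Psme1, -0.54 for Psme2, -0.0222 for Psmc3ip, -1.48 for Tap1 and -0.79 for Tap2. Psmb1 was at -0.0011 with quantile normalization. With 1 library left out at a time, the log2 change of Psma4 ran from -0.0445 (without knockout replicate 1) to 0.19, that of Psmb1 from -0.0018 (without knockout replicate 1) to 0.165, and that of Psmb11 from -0.57 to 0.21 (without wild type replicate 2; 0.0907 without knockout replicate 2). Under TMM scaling and quantile normalization the median log2 change of all genes was -0.01 and 0.00.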
